A study of Mus musculus with 12 samples.

Results

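Mitochondrial ribosomal protein genes were followed in mouse liver under a high-fat diet and low-dose penicillin. They were taken as the genes whose single symbol in the platform annotation is Mrpl or Mrps followed by a digit, the letters standing for the large and the small ribosomal subunit. That rule gave 76 genes of the 18193 named genes on the array. Where a gene had several probe sets, the brightest on average across the 12 arrays stood for it. All 76 were tested, and all 76 lay above the filter on dim values on all 12 arrays, so none was kept through 1 group alone. The labelled name held for all but a few symbols. Mrps30 and Mrps18a encode proteins of the large subunit despite their names and were counted there, and Mrps36 is now regarded as a component of the alpha-ketoglutarate dehydrogenase complex and was put in neither subunit. Mrpl30 and Mrpl53 were measured only by probe sets that carry several symbols and were not used here.

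Mitochondria keep a small genome of their own, and its protein-coding genes all specify subunits of the oxidative phosphorylation complexes. These messages are translated inside the organelle by a dedicated ribosome, the mitoribosome. Its ribosomal RNAs come from the mitochondrial genome, whereas every one of its proteins is encoded in the nucleus, made in the cytosol and imported. Some of these proteins descend from the proteins of the bacterial ribosome and others were added during the evolution of mitochondria. The liver is rich in mitochondria and burns much of the fatty acid that reaches it. Of the 75 members with a subunit class, 49 belong to the large subunit, which joins amino acids into a chain, and 26 to the small subunit, which reads the message. In the large subunit 29 were listed as having a bacterial counterpart and 20 as specific to mitochondria, and in the small subunit 16 and 10. Mrps18a and Mrps18b were listed as specific to mitochondria, and Mrps18c as having a bacterial counterpart.

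Liver RNA came from 12 male C57BL6J mice, an inbred laboratory strain, killed at 30 weeks of age, with 1 array per mouse. Control mice had no antibiotic, and penicillin mice drank water with 6.7 mg/L penicillin, a low dose. Every mouse began on normal chow, with 13.5% of its energy from fat; the high-fat groups were moved at 17 weeks to a diet with 45% from fat. Treatment and diet together make 4 groups of 3 mice, control chow and control high-fat, then penicillin chow and penicillin high-fat, and an array is named by its group and replicate number. The sources used here give neither the age at which penicillin began nor the cages and litters. Values are log2 expression, where 1 unit is a doubling, and each difference carries its standard error from the model, with n = 3 mice in a group.

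Array medians lay between 5.52 and 5.59, nearly equal because RMA, the normalisation used, brings the arrays to one distribution. Arrays of 1 group correlated at 0.991 to 0.996 over all probe sets. The hepatocyte marker Alb, which encodes albumin, read 14.98 to 15.05. Other hepatocyte markers varied more, such as Tat at 11.68 to 13.08. The mean of the control probe sets for 18S ribosomal RNA stood apart on 3 arrays. It read 11.76 and 11.77 on penicillin chow 2 and 3 and 11.81 on penicillin high-fat 2, whereas the lowest of the other arrays read 12.67. The mean of 3 neutrophil markers was 8.53 on penicillin chow 1 and at most 7.11 elsewhere. An earlier examination of these data had singled out that array for its acute-phase genes and penicillin high-fat 1 for its clock genes, which were not measured again here. Results that rest on these arrays are given with and without them.

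High-fat feeding, averaged over control and penicillin mice, raised 10 mitochondrial ribosomal protein genes and lowered 1 at an adjusted p under 0.05 in limma, the linear model used for all 13788 genes tested. Mrpl48, Mrpl45, Mrpl41, Mrpl40 and Mrpl33 of the large subunit rose, as did Mrps28, Mrps6, Mrps25, Mrps18c and Mrps33 of the small subunit, and Mrpl47 of the large subunit fell. The changes were small, from 0.17 for Mrpl40 to 0.38 for Mrpl48, which is a 1.30-fold difference. Over all genes 14.5% passed the same threshold, 9.63% higher and 4.85% lower, and the 11 calls among 76 genes are the same share, so their number is not a result about these genes. The members' median difference was 0.06, against -0.01 for all genes tested, and 54 of 76 differences were positive, against 47.7% of all genes. In whole liver, a gene expressed in fewer cells and less RNA of that gene per cell cannot be told apart.

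**Figure D1:**
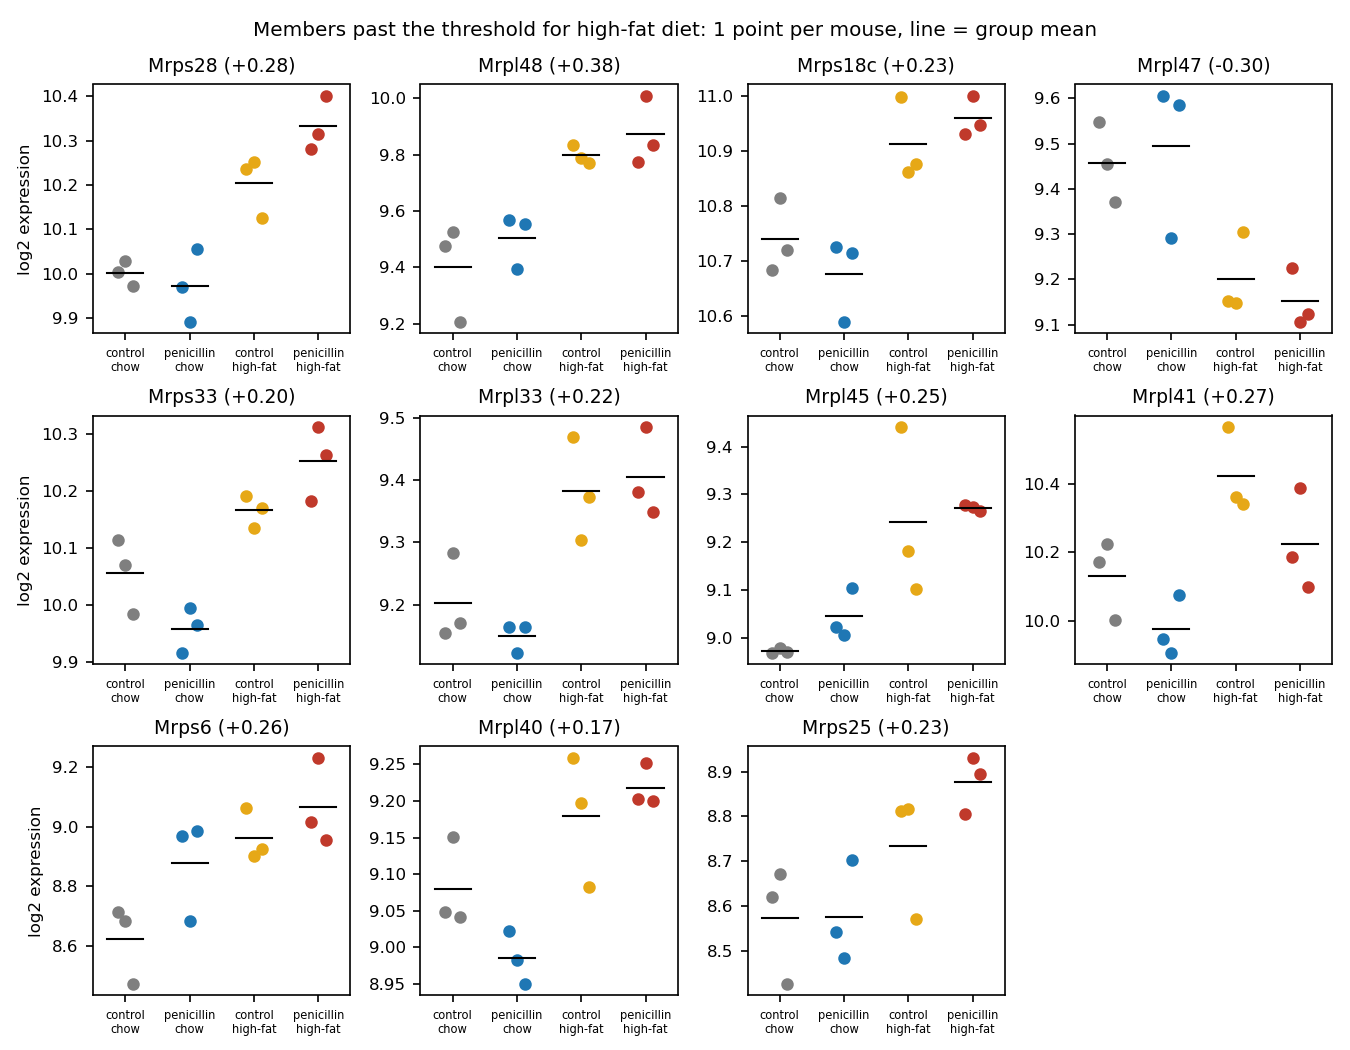
Log2 expression (vertical axis, its own range in each panel, not starting at 0) of the 11 mitochondrial ribosomal protein genes past the threshold for high-fat diet averaged over treatments, 1 point per mouse in 4 groups of 3, with the group mean as a line and the log2 difference in the panel title. The 6 high-fat mice lie above the 6 chow mice without overlap for Mrps28, Mrpl48, Mrps18c, Mrps33 and Mrpl33, and Mrpl47 is the gene that is lower on the high-fat diet.

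Among the large-subunit proteins specific to mitochondria, Mrpl48 read 9.47, 9.53 and 9.21 in control chow, 9.57, 9.39 and 9.55 in penicillin chow, 9.83, 9.79 and 9.77 in control high-fat and 9.77, 10.01 and 9.83 in penicillin high-fat mice. All 6 high-fat mice lay above all 6 chow mice, which held for 4.35% of all genes tested, and the difference was 0.38 ± 0.07 (adjusted p = 0.00453, limma). Mrpl45, whose protein lies at the exit of the nascent chain and binds the inner membrane, read 8.97, 8.98 and 8.97 in control chow, 9.02, 9.01 and 9.11 in penicillin chow, 9.44, 9.18 and 9.10 in control high-fat and 9.28, 9.27 and 9.27 in penicillin high-fat mice. Control high-fat 1 was the highest mouse and control high-fat 3 fell among the penicillin chow mice, and the difference was 0.25 ± 0.06 (adjusted p = 0.0176). Mrpl41 read 10.17, 10.22 and 10.00 in control chow, 9.95, 9.91 and 10.08 in penicillin chow, 10.57, 10.36 and 10.34 in control high-fat and 10.19, 10.39 and 10.10 in penicillin high-fat mice. Diet separated the mice within each treatment, while penicillin high-fat mice overlapped control chow mice; the difference was 0.27 ± 0.07 (adjusted p = 0.0263). Mrpl40 read 9.05, 9.15 and 9.04 in control chow, 9.02, 8.98 and 8.95 in penicillin chow, 9.26, 9.20 and 9.08 in control high-fat and 9.20, 9.25 and 9.20 in penicillin high-fat mice. Its difference was the smallest of those called, 0.17 ± 0.05 (adjusted p = 0.0411), and control high-fat 3 overlapped the chow mice.

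Of the large-subunit proteins with a bacterial counterpart, Mrpl33 rose and Mrpl47 fell. Mrpl33 read 9.15, 9.28 and 9.17 in control chow, 9.17, 9.12 and 9.16 in penicillin chow, 9.47, 9.30 and 9.37 in control high-fat and 9.38, 9.49 and 9.35 in penicillin high-fat mice. The chow and high-fat mice did not overlap, and the difference was 0.22 ± 0.05 (adjusted p = 0.0162, limma). Mrpl47 read 9.55, 9.46 and 9.37 in control chow, 9.61, 9.29 and 9.58 in penicillin chow, 9.15, 9.15 and 9.30 in control high-fat and 9.23, 9.11 and 9.12 in penicillin high-fat mice. Within each treatment the high-fat mice were all lower, and across treatments only penicillin chow 2 lay below control high-fat 3. Mrpl47 fell by 0.30 ± 0.07 (adjusted p = 0.0130), a ratio of 0.812.

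In the small subunit, Mrps28, Mrps18c and Mrps6 have bacterial counterparts, and Mrps33 and Mrps25 are specific to mitochondria. Mrps28 had the smallest p among the members. It read 10.00, 10.03 and 9.97 in control chow, 9.97, 9.89 and 10.06 in penicillin chow, 10.24, 10.25 and 10.13 in control high-fat and 10.28, 10.31 and 10.40 in penicillin high-fat mice. The chow and high-fat mice did not overlap, and the difference was 0.28 ± 0.05 (adjusted p = 0.00416, limma). Mrps18c, 1 of the mammalian counterparts of a single bacterial protein, read 10.68, 10.81 and 10.72 in control chow, 10.73, 10.59 and 10.71 in penicillin chow, 11.00, 10.86 and 10.88 in control high-fat and 10.93, 11.00 and 10.95 in penicillin high-fat mice. These groups did not overlap by diet either, with a difference of 0.23 ± 0.05 (adjusted p = 0.0127). Mrps33 read 10.11, 10.07 and 9.98 in control chow, 9.92, 9.99 and 9.96 in penicillin chow, 10.19, 10.14 and 10.17 in control high-fat and 10.18, 10.31 and 10.26 in penicillin high-fat mice. Its mice were again separated by diet, by 0.20 ± 0.05 (adjusted p = 0.0156). Mrps6 and Mrps25 passed with overlap. Mrps6 read 8.71, 8.69 and 8.47 in control chow, 8.97, 8.68 and 8.98 in penicillin chow, 9.06, 8.90 and 8.93 in control high-fat and 9.02, 9.23 and 8.96 in penicillin high-fat mice. Penicillin chow 1 and 3 lay among the high-fat mice, and the difference was 0.26 ± 0.08 (adjusted p = 0.0395). Mrps25 read 8.62, 8.67 and 8.43 in control chow, 8.54, 8.48 and 8.70 in penicillin chow, 8.81, 8.82 and 8.57 in control high-fat and 8.80, 8.93 and 8.90 in penicillin high-fat mice. Control high-fat 3 lay among the chow mice, and the difference was 0.23 ± 0.07 (adjusted p = 0.0423).

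Without the 3 arrays of low 18S signal, which leaves 1 penicillin chow array and assumes that it varies like the other groups, 5 members passed instead of 11, 2 higher and 3 lower, while the share of all genes passing went from 14.5% to 12.6%. Mrps28 at 0.29 (adjusted p = 0.0241), Mrpl48 at 0.31 (adjusted p = 0.0414) and Mrpl47 at -0.34 (adjusted p = 0.0205) passed with and without those arrays. Mrpl19 and Mrps18b, both lower, passed only without them and are named because they complete that count. Without penicillin chow 1 and penicillin high-fat 1, 6 members and 11.7% of all genes passed. These members were Mrps28, Mrpl48, Mrps18c, Mrps33 and Mrpl33, higher, and Mrpl47, lower.

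Where a called gene had further probe sets above the filter, each gave a smaller difference than the brightest set. A second Mrpl48 probe set differed by 0.21 in the same direction, and another, dim one by -0.19. For Mrpl41 the second probe set gave 0.21 and for Mrps6 0.22. The second Mrpl47 set gave -0.06, and the further Mrps25 sets 0.05 and 0.06, all of them only just above the filter, so the size of the change in these genes depends on the probe set. A dim Mrpl33 set differed by -0.12. With the mean of all its probe sets in place of the brightest, Mrpl48 was at 0.13 (adjusted p = 0.0803, limma), Mrpl33 at 0.05 (adjusted p = 0.590) and Mrps25 at 0.12 (adjusted p = 0.216), none past the threshold. Other probe sets also added calls. Mrpl39, higher, and Mrpl15, lower, passed with the mean of all sets, and Mrpl1 and Mrpl39, higher, and Mrpl15, lower, passed with the set of largest variance. These 3 genes are named because they complete those counts. A further set differed by 0.28 against 0.18 in the brightest set for Mrpl1, by 0.22 against 0.09 for Mrpl39 and by -0.69 against -0.14 for Mrpl15. Another Mrpl1 set above the filter went the other way, at -0.10. The Mrpl15 set at -0.69 is of a type whose probes may also bind other sequences. The other Mrpl15 sets above the filter lay between -0.20 and -0.01. Mrps28, Mrps18c, Mrps33, Mrpl45 and Mrpl40 had 1 probe set each. Among the 37 members with several probe sets above the filter, all sets of a gene had the same sign for 19, and for 6 they differed in sign by over 0.2.

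Promoters are shown for the members with the most calls over the 7 comparisons, because these genes carry the diet results. Mrps28, Mrpl48, Mrps18c, Mrpl47 and Mrps33 had 2 calls each, and Mrpl33 had the smallest p of the 6 members with 1 call. Sequences are from RefSeq on GRCm38.p6, from 250 bases before to 50 bases after the annotated start, read 5′ to 3′ on the gene's strand. Capitals mark exact matches, on either strand, to 6 motifs. The letters GCGCATG are part of the site of the factor NRF1. The letters CCGGAAG are bound by the ETS family, which includes GABPA. The letters AAGATGG are a site of YY1, and the letters GGGCGG a site of SP1. The other motifs were the CCAAT box, searched by those letters, and the E-box, searched as CACGTG. Mrps18c lies at chr5:100798509-100798808 on the plus strand, Mrps33 at chr6:39810887-39811186 on the minus strand, Mrpl33 at chr5:31613701-31614000 on the plus strand and Mrpl47 at chr3:32736706-32737005 on the minus strand. Mrpl48 has 4 entries, of which the outermost is shown, at chr7:100608252-100608551 on the minus strand. Mrps28 is named without a sequence.
Mrps18c: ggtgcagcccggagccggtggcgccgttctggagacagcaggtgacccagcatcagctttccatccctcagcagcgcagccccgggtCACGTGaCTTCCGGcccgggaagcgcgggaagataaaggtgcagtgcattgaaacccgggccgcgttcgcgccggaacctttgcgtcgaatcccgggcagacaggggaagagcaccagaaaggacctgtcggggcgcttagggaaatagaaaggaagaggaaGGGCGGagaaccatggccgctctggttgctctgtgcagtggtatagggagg
Mrps33: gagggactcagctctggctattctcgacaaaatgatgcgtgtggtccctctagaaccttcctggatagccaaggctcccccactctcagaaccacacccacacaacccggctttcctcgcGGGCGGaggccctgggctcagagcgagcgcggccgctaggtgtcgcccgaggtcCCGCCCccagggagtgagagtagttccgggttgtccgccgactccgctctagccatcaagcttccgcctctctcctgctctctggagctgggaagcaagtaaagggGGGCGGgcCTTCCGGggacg
Mrpl33: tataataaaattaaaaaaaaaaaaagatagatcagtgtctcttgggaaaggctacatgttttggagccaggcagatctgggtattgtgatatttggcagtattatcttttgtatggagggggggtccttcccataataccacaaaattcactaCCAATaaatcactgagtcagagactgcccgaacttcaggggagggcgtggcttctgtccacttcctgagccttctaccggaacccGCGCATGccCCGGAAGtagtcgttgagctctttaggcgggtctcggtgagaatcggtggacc
Mrpl48: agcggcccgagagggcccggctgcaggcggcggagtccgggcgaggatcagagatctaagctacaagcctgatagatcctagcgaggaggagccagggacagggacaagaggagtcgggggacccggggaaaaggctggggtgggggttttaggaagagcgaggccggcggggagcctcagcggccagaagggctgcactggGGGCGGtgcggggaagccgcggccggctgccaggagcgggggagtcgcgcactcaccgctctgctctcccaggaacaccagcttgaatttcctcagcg
Mrpl47: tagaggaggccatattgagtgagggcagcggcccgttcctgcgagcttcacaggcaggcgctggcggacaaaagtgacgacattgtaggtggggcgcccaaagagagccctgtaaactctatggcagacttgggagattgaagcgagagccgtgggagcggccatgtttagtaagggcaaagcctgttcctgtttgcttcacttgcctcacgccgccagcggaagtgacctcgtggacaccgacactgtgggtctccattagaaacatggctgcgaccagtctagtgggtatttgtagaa

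In the windows shown, the ETS letters stand in Mrps18c, Mrps33 and Mrpl33, and SP1 letters in Mrps18c, Mrps33 and Mrpl48. The Mrpl47 window holds none of the 6 motifs. Another Mrpl48 entry, not shown, holds the ETS letters and not the SP1 letters, and the remaining Mrpl48 entries hold the SP1 letters. Of the 76 members, 67 had a promoter entry, 73 entries in all. The ETS letters stood in 34.25% of the members' entries and in 11.6% of the 21263 entries of protein-coding genes. The YY1 letters stood in 17.8% against 6.24%, and the NRF1 letters in 11.0% against 4.80%. For SP1 the shares were 53.4% and 46.2%, for the CCAAT box 39.7% and 38.2%, and for the E-box 9.59% and 7.835%. Matches of different motifs were counted separately where they overlapped. The median diet difference was 0.06 for the 25 genes with the ETS letters and 0.07 for the 42 without. These matches are letters in a window and were not tested as binding sites.

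Many of these genes start beside another gene that runs the opposite way. A protein-coding partner began within 1000 bases on the other strand for 34.25% of the members' entries and for 7.97% of those of protein-coding genes. The partner was tested for 22 of the 23 members concerned, and its diet difference had the member's sign for 10. Of the partners 2 passed the threshold, both higher, against 9.63% of all genes higher and 4.85% lower. Their number is near the share of all genes and is not a result about the partners. Mrpl47 starts 308 bases from Ndufb5, a subunit of respiratory complex I, which differed by 0.04 (adjusted p = 0.515, limma) where Mrpl47 fell. Mrps18c starts 159 bases from Helq, a DNA helicase, at -0.02 (adjusted p = 0.859). Mrpl40 starts 113 bases from Hira, a histone chaperone, at -0.24 (adjusted p = 0.145). Mrpl41 starts 935 bases from Pnpla7, a lysophospholipase, which rose by 0.33 ± 0.06 (adjusted p = 0.00477). Mrpl50 starts 93 bases from Zfp189, a zinc finger gene, which rose by 0.42 ± 0.09 (adjusted p = 0.0135), while Mrpl50 was at 0.15 (adjusted p = 0.188). Mrpl46 and Mrps11 are partners of each other, 42 bases apart, at 0.10 and 0.18, neither past the threshold.

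The genes that did not pass lay between -0.22 and 0.18 for high-fat diet. The class counts below stand beside 9.63% of all genes higher and 4.85% lower, and the difference between classes was not tested. Of the 29 large-subunit genes with a bacterial counterpart, 1 rose and 1 fell, with a median of 0.05. Of the 20 specific to mitochondria 4 rose, with a median of 0.09. In the small subunit 3 of the 16 genes with a bacterial counterpart rose, with a median of 0.09, and 2 of the 10 specific to mitochondria, with a median of -0.01. By subunit the medians were 0.06 for both the large and the small. For all 76 genes the 95% interval of the diet difference lay within 1.5-fold in either direction, as it did for 90.0% of all genes tested.

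**Figure D2:**
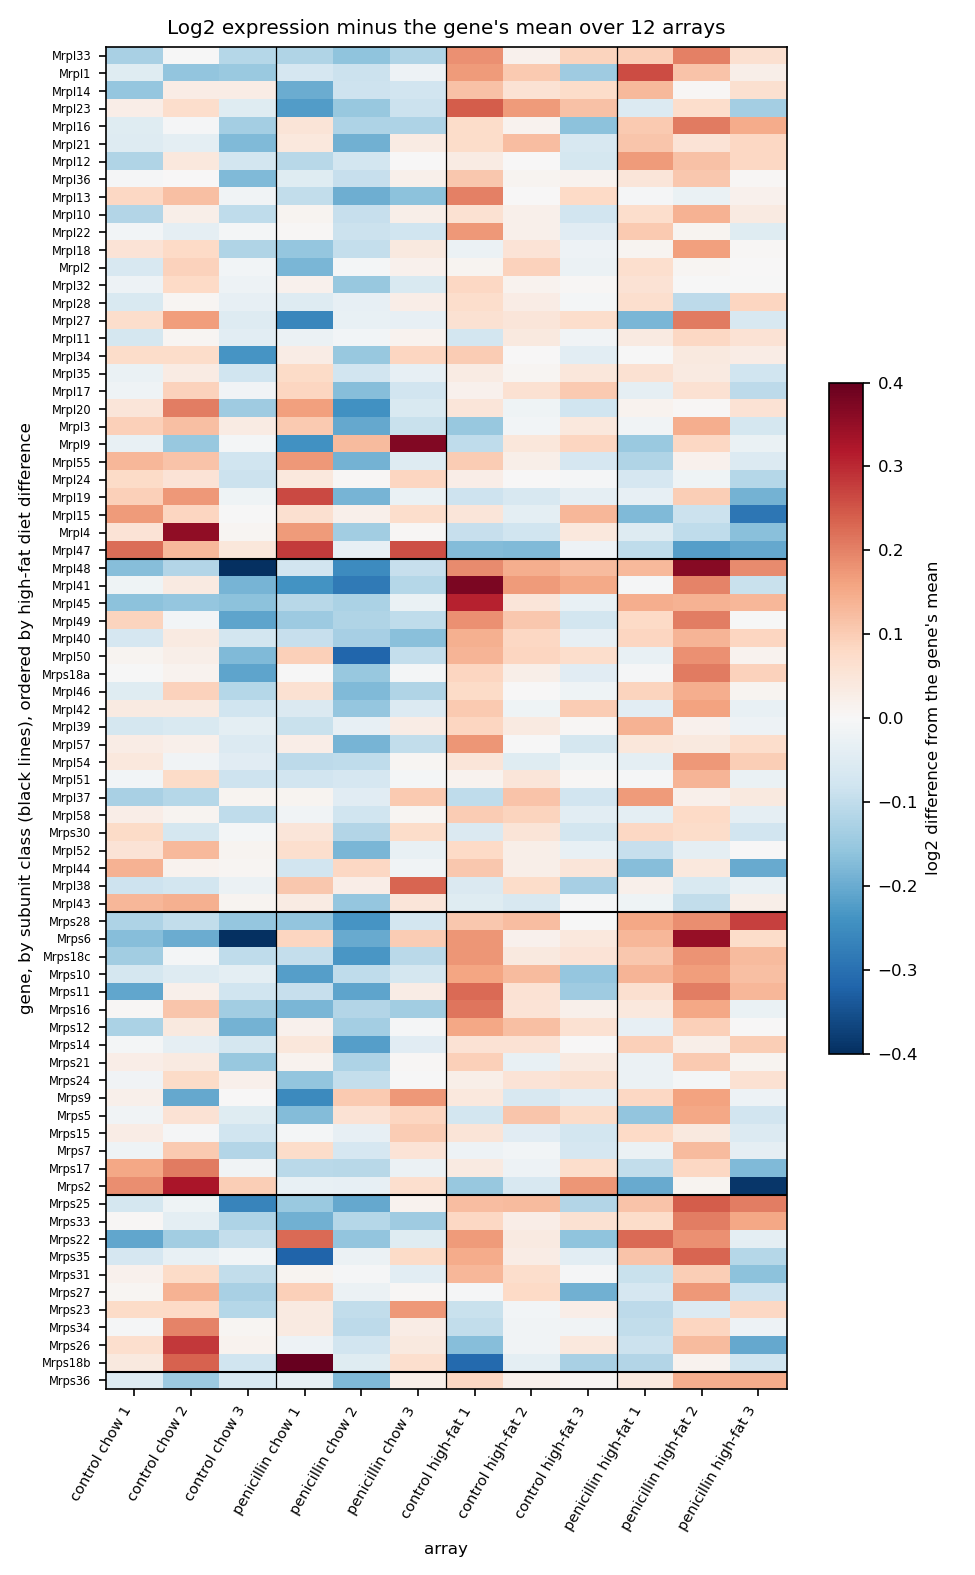
Each row is 1 of the 76 genes and each column 1 array in 4 groups of 3, and the colour is log2 expression minus that gene's mean over the 12 arrays, from blue (lower) to red (higher). Rows are split by subunit class in the order large with bacterial counterpart, large specific to mitochondria, small with bacterial counterpart, small specific to mitochondria and Mrps36, and ordered by the diet difference. Penicillin chow 2 is the bluest column and penicillin high-fat 2 among the reddest.

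The diet was also compared within each treatment. These comparisons use different mice, and their counts of calls do not test whether the diet acted alike with and without penicillin. The interaction, given below, does. In control mice limma called 0 members (0.899% of all genes passed), and 8 higher and 1 lower had an unadjusted p under 0.05, against 8.51% and 6.59% of all genes. In penicillin mice 4 rose and 1 fell, against 6.43% and 1.89% of all genes and 8.32% in all. At an unadjusted p under 0.05 were 16 higher and 2 lower, against 15.3% and 9.23%. The called genes were Mrps28 at 0.36 ± 0.07 (adjusted p = 0.0103), Mrps33 at 0.29 ± 0.07 (adjusted p = 0.0194), Mrps18c at 0.28 ± 0.07 (adjusted p = 0.0315) and Mrpl48 at 0.37 ± 0.10 (adjusted p = 0.0382). Mrpl47 fell by 0.34 ± 0.09 (adjusted p = 0.0457). With arrays centred on their median the split was 1 higher and 2 lower, Mrps28 against Mrpl15 and Mrpl47, with 8.63% of all genes passing. No member passed without the 3 arrays of low 18S signal, where Mrps28 was at 0.37 with an adjusted p of 0.0673 and 8.06% of all genes passed. None passed in a fit to the 6 penicillin arrays alone, where 3.5% of all genes did.

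In control mice the genes with the smallest p did not pass. Mrpl48 differed by 0.39 ± 0.10 (adjusted p = 0.0814, limma), Mrpl45 by 0.27 ± 0.08 (adjusted p = 0.151) and Mrps6 by 0.34 ± 0.11 (adjusted p = 0.160). Mrpl41 differed by 0.29 ± 0.10 (adjusted p = 0.192) and Mrps28 by 0.20 ± 0.07 (adjusted p = 0.199). In both kinds of mice, 49 of 76 members were higher on the high-fat diet, against 33.8% of all genes, and 13 were lower in both, against 36.9%. The groups did not overlap in either for 9 higher members, against 6.47% of all genes, and for 1 lower member, Mrpl47, against 3.63%. The 9 were Mrpl33, Mrpl41, Mrpl45, Mrpl48, Mrps18c, Mrps28 and Mrps33 of those called above, with Mrpl14 and Mrps36, named here because they complete the count.

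**Figure D3:**
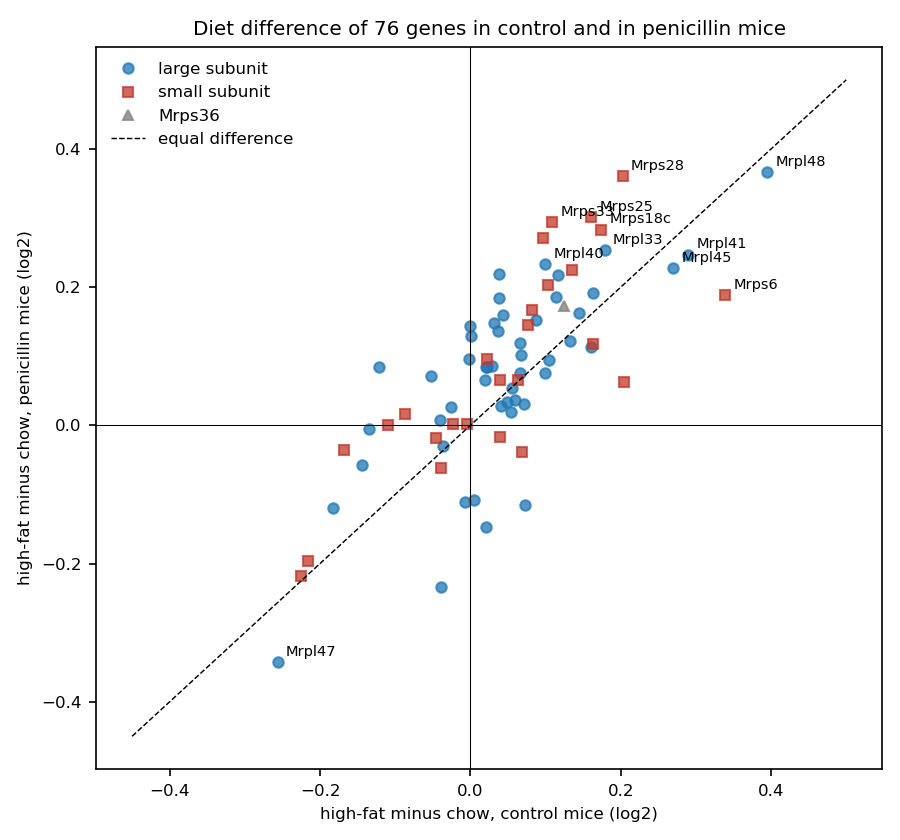
High-fat minus chow difference in log2 expression in control mice (horizontal axis) and in penicillin mice (vertical axis), 1 point per gene for 76 genes, blue circles for the large subunit, red squares for the small subunit and a grey triangle for Mrps36, with the dashed line marking equal differences. The 11 genes called in the average carry their names; 49 genes are positive on both axes, and Mrpl47 is the lowest at the lower left.

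The interaction, which is the diet difference in penicillin mice minus that in control mice, called 0 members in limma, and 0 had an unadjusted p under 0.05, against 0.0435% and 6.11% of all genes. The members with the smallest p were Mrps33 at 0.19 ± 0.09 (adjusted p = 0.853), Mrpl15 at -0.20 ± 0.11 (adjusted p = 0.860), Mrps28 at 0.16 ± 0.10 (adjusted p = 0.878), Mrpl3 at 0.21 ± 0.13 (adjusted p = 0.880) and Mrpl38 at -0.17 ± 0.11 (adjusted p = 0.880). The median over the members was 0.05, against 0.01 for all genes, and -0.014 without the 3 arrays of low 18S signal. For 75 of 76 genes the 95% interval lay within 1.5-fold, against 74.4% of all genes. That limit, 0.585 in log2, is wider than the largest averaged diet difference among the members, 0.38. It therefore cannot show that the response to diet was alike in the 2 treatments.

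Penicillin was compared with control on each diet. On chow limma called 0 members, against 0.00725% of all genes, and 2 higher and 3 lower had an unadjusted p under 0.05, against 2.76% and 4.86%. The groups did not overlap for 2 higher and 6 lower members, against 4.79% and 7.04% of all genes. Mrpl13 read 10.74, 10.77 and 10.64 in control and 10.55, 10.46 and 10.49 in penicillin mice on chow, without overlap, a difference of -0.22 ± 0.07 (adjusted p = 0.544). Mrps17 read 10.52, 10.58 and 10.35 against 10.26, 10.26 and 10.34, also without overlap, at -0.20 ± 0.08 (adjusted p = 0.624). Mrpl38 was at 0.18 ± 0.08 (adjusted p = 0.618), Mrps6 at 0.25 ± 0.11 (adjusted p = 0.618) and Mrpl23 at -0.17 ± 0.08 (adjusted p = 0.651). The members' median was -0.03, against -0.01 for all genes, and 0.01 without the 3 arrays of low 18S signal.

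On the high-fat diet penicillin called 0 members in limma, against 0.341% of all genes, and 0 higher and 2 lower had an unadjusted p under 0.05, against 6.27% and 3.86%. The groups did not overlap for 3 higher and 3 lower members, against 9.50% and 7.85%. Mrpl15 read 11.22, 11.13 and 11.30 in control and 11.00, 11.08 and 10.88 in penicillin mice, without overlap, a difference of -0.23 ± 0.08 (adjusted p = 0.329). Its probe set is of a type whose probes may also bind other sequences. Mrpl23 read 10.54, 10.47 and 10.42 against 10.24, 10.37 and 10.16, at -0.22 ± 0.08 (adjusted p = 0.345). Mrpl16 was at 0.18 ± 0.08 (adjusted p = 0.502), Mrpl44 at -0.17 ± 0.08 (adjusted p = 0.530) and Mrpl41 at -0.20 ± 0.10 (adjusted p = 0.551). The members' median was 0.02, against -0.00051 for all genes, and it was -0.0016 with arrays centred on their median and -0.00049 without the 3 arrays of low 18S signal.

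Averaged over diets, penicillin called 0 members, against 0.145% of all genes, and 1 higher and 6 lower had an unadjusted p under 0.05 in limma, against 6.15% and 5.77%. Mrpl23, a protein at the exit of the nascent chain, had the smallest p. Penicillin and control mice did not overlap on either diet, and the difference was -0.19 ± 0.05 (adjusted p = 0.189). Mrpl13 was at -0.16 ± 0.05 (adjusted p = 0.251), Mrpl41 at -0.18 ± 0.07 (adjusted p = 0.352), Mrps17 at -0.14 ± 0.06 (adjusted p = 0.374) and Mrps2 at -0.19 ± 0.08 (adjusted p = 0.377). The median was -0.01, and for all 76 genes the 95% interval lay within 1.5-fold, against 94.9% of all genes.

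The members varied little between mice of a group. The SD within groups, pooled over the 4 groups, had a median of 0.0876 over the members and 0.130 over all genes tested. Mrpl11, which forms part of the stalk base where translation factors bind, had the smallest, 0.0377, and read 9.73 to 9.89 over the 12 arrays. Mrps24 and Mrps33 followed at 0.0522 and 0.0525. The largest were those of Mrpl9 at 0.177, Mrps18b at 0.172 and Mrps22 at 0.150. Mrpl9 read 8.94, 9.31 and 9.56 in penicillin chow mice, and Mrps18b ranged from 9.71 to 10.21 in the same group.

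Single arrays shifted many members at once. The mean deviation of the 76 genes from their own means was lowest on penicillin chow 2, at -0.11, where 7 genes lay above their mean, and on control chow 3, at -0.08, where 13 did. It was highest on penicillin high-fat 2, at 0.09, where 64 genes lay above their mean, and on control high-fat 1, at 0.06, where 57 did. The remaining arrays lay between -0.03 and 0.04. Penicillin chow 2 and penicillin high-fat 2 were both arrays of low 18S signal, at opposite ends of this range, and control high-fat 1 had the highest 18S signal, 13.87. The part of the 18S signal in the diet calls was examined only through the fits without those arrays and with that signal as a covariate.

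**Figure D4:**
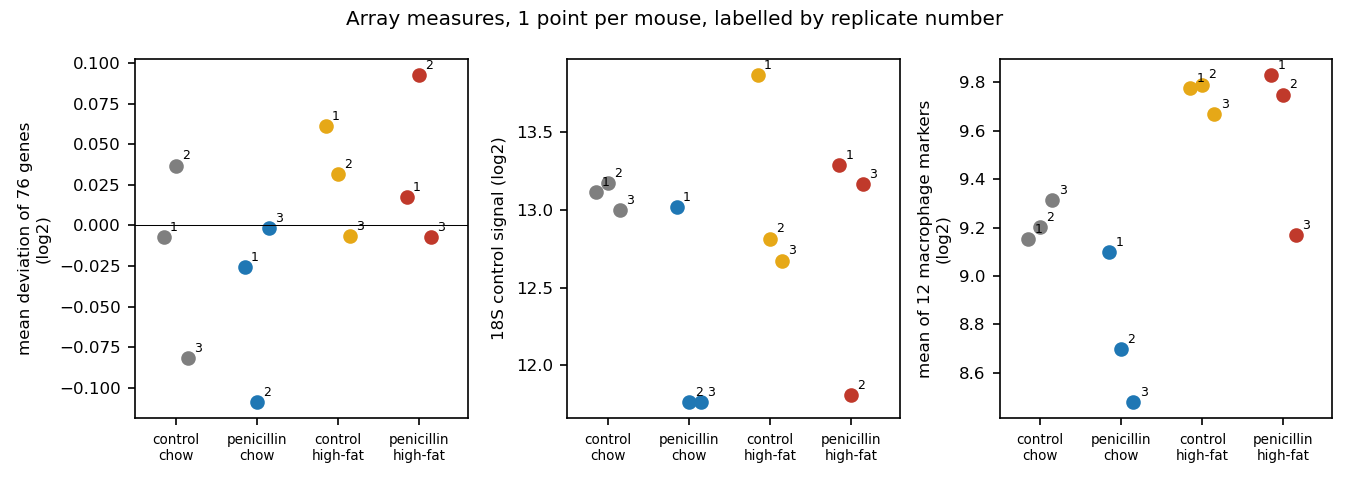
The panels show log2 values for each of the 12 mice, labelled by replicate number in 4 groups of 3. The first panel is the mean deviation of the 76 genes from their own means. The second is the mean signal of the control probe sets for 18S ribosomal RNA, and the third the mean of 12 macrophage markers. No axis starts at 0. Penicillin chow 2 and penicillin high-fat 2 are the lowest and highest in the first panel and both low in the second, and macrophage markers are higher in most high-fat mice.

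Some markers of other liver cells moved with diet as well. Their counts stand beside 9.63% of all genes higher and 4.85% lower. Of 12 markers of Kupffer cells and other macrophages 11 rose on the high-fat diet, with a median difference of 0.68. Their mean ranged from 9.15 to 9.31 in control chow, 8.48 to 9.10 in penicillin chow, 9.67 to 9.79 in control high-fat and 9.17 to 9.83 in penicillin high-fat mice. Of 9 markers of sinusoidal endothelium 7 rose, with a median of 0.38, and their mean ranged from 8.11 to 8.26, 7.75 to 8.10, 8.50 to 8.54 and 8.37 to 8.63 in the same order of groups. Of 9 stellate cell markers 6 rose, with a median of 0.33, and their mean ranged from 8.12 to 8.30, 7.82 to 8.03, 8.21 to 8.45 and 8.29 to 8.71. Of 10 hepatocyte markers 0 rose and 1 fell, the median was 0.005, and their mean ranged from 13.31 to 13.53 over all mice. The adipocyte marker Adipoq read 3.13 to 3.58, below the filter. The mean of the 2 adipocyte markers tested, Retn and Fabp4, ranged from 7.26 to 7.47 in control chow and 7.18 to 7.58 in penicillin chow mice. It was higher on the high-fat diet, from 7.60 to 7.94 in control and 7.83 to 7.96 in penicillin mice. The mean of 4 cholangiocyte markers ranged from 5.96 to 6.05 in control chow and 5.59 to 5.76 in control high-fat mice, lower without overlap. It ranged from 5.70 to 5.90 in penicillin chow and 5.75 to 5.85 in penicillin high-fat mice. Means of T, B and NK cell, neutrophil and erythroid markers overlapped between diets in both treatments. The part of these cell types in the members' differences was not tested.

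Other genes of mitochondrial translation were taken from lists. Counts for the high-fat diet stand beside 9.63% of all genes higher and 4.85% lower. With so few genes in a list, 1 call is near these shares and is not a result about the list. Of 11 translation factors 1 rose on the high-fat diet, Gfm1, the elongation factor that moves the ribosome along the message, by 0.20 ± 0.05 (adjusted p = 0.0195, limma), and the median was -0.01. Of 17 mitochondrial aminoacyl-tRNA synthetases, which charge transfer RNAs, 1 rose, Iars2 for isoleucine, by 0.28 ± 0.07 (adjusted p = 0.0160), with a median of 0.04. Of 21 factors of ribosome assembly and ribosomal RNA modification 1 rose and 1 fell, the pseudouridine synthases Rpusd4 at 0.20 ± 0.05 (adjusted p = 0.0271) and Rpusd3 at -0.17 ± 0.05 (adjusted p = 0.0419), with a median of -0.03. Of 14 genes of mitochondrial transcription and RNA handling 1 fell, Polrmt, the mitochondrial RNA polymerase, at -0.28 ± 0.05 (adjusted p = 0.00654). Of 9 regulators of mitochondrial biogenesis 1 rose, Ppargc1a, a coactivator of that programme, by 1.03 ± 0.15 (adjusted p = 0.00164), while the median of the list was -0.10. Of 4 mitoribosomal proteins with other symbols 0 passed, 0 with an unadjusted p under 0.05. Dap3, a small-subunit protein, had the smallest p over the averaged comparisons, for penicillin at -0.17 ± 0.08 (adjusted p = 0.430).

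The proteins of the oxidative phosphorylation complexes, which the mitoribosome partly makes, and those of the cytosolic ribosome gave the nearest lists for comparison. By direction, their counts on the high-fat diet stand beside 9.63% of all genes higher and 4.85% lower. Both lists had a total share of calls near the 14.5% of all genes. Of 79 nuclear oxidative phosphorylation genes 11 rose and 0 fell, with a median of 0.05 and 66 of 79 differences positive. Those with the smallest p were Cox7a1 of complex IV at 0.91 ± 0.15 (adjusted p = 0.00272, limma), Sdhd of complex II at 0.24 ± 0.05 (adjusted p = 0.0137) and Ndufb2 of complex I at 0.17 ± 0.04 (adjusted p = 0.0196). Of 47 cytosolic ribosomal protein genes 1 rose and 6 fell, with a median of -0.07 and 6 of 47 differences positive. Those with the smallest p were Rpsa at -0.35 ± 0.06 (adjusted p = 0.00402), Rpl22l1 at -0.43 ± 0.08 (adjusted p = 0.00497) and Rpl10a at -0.20 ± 0.04 (adjusted p = 0.0109). The difference between these lists was not tested, and the median kept its sign in each of the 3 lists when arrays were centred, when they were normalised by cyclic loess and without the 3 arrays of low 18S signal.

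**Figure D5:**
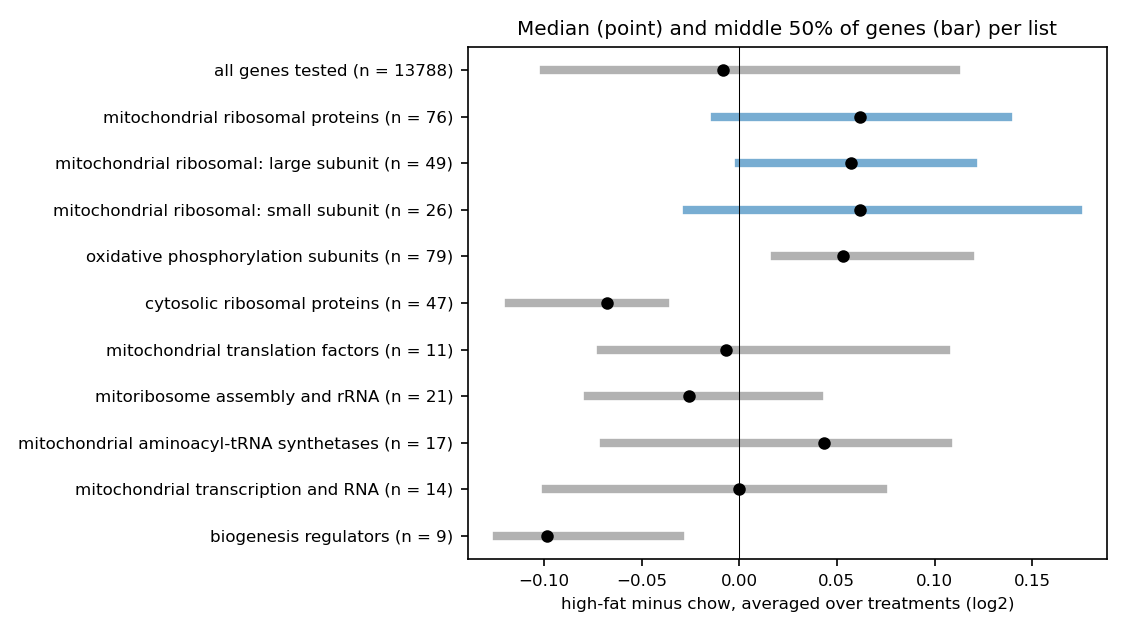
High-fat minus chow difference averaged over treatments (log2, horizontal axis) for each list of genes with its number of genes; the point is the median and the bar spans the middle 50% of the genes, not an error of the median. Mitochondrial ribosomal proteins have a median of 0.06, oxidative phosphorylation subunits 0.05, cytosolic ribosomal proteins -0.07 and all genes tested -0.01.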

How the data were processed

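Per the submitters' processing notes, the authors deposited log2 expression values made with RMA in the affy package, with no version in the sources used here. RMA brings the arrays to one distribution, so differences are relative to most other genes. Names for the 45101 probe sets came from the platform annotation in GEO: 34945 had 1 symbol, 932 several, 9160 none, and 64 were controls. Probe sets with several symbols were not used. All 76 members' gene IDs matched RefSeq, with unchanged symbols. A gene was tested if its probe set passed log2 5.00, the 40th percentile of the values, on 3 or more arrays.

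Group means of the 4 groups were fitted on all 12 arrays with limma 3.58.1 in R 4.3.3 (8 residual degrees of freedom, eBayes), with 7 contrasts and Benjamini-Hochberg adjustment over 13788 genes at an adjusted p under 0.05. The labels call replicates biological, and p-values rest on the spread among these mice. Precision is limited by the number of arrays: the members' median standard error was 0.08 between groups, 0.06 averaged and 0.12 for the interaction. Scan batches were not used here. Probe sets of a gene were compared above the filter and below it, where a set is called dim. The script was tested on simulated data. Other settings tried were the low-value filter, how a probe set was picked, scaling, array weights, variance settings, the threshold, an 18S covariate, a replicate block and left-out arrays. The members and lists were chosen with earlier results of these data known, and alternatives in part too. Named genes are those past the threshold in any contrast, the 5 smallest p per contrast, the 3 largest and smallest SDs, those whose probe sets differ in sign, and the leading genes of each list. Motifs were searched as letters in all RefSeq promoter entries, and promoters are shown for the members with the most calls over the contrasts, ties taken by the smallest p.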

Additional observations from a re-analysis of the deposited data

How the results depend on the processing

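For high-fat diet averaged over treatments (11 members called), 6 were called without penicillin chow 1 and penicillin high-fat 1 together and 5 without the 3 arrays of low 18S signal; leaving out each array in turn gave 7 to 12, the lowest without control chow 3, penicillin chow 2 or control high-fat 1. Mrpl48, Mrpl47, Mrps28, Mrpl45, Mrps18c, Mrpl33 and Mrps33 passed in 12 of 12 such fits, Mrpl41 in 8, and Mrps6, Mrps25 and Mrpl40 in 3 each. Mrps28 and Mrpl47 passed under all 25 alternatives run for them, and Mrpl48 under 24, failing with the mean of all probe sets. For high-fat diet in penicillin mice (5 called), the count was 3 with arrays centred on their median, 0 with only the groups compared, 2 with the 18S signal as a covariate, 10 at an adjusted p under 0.1, 1 without penicillin chow 1 and penicillin high-fat 1 and 0 without the 3 arrays of low 18S signal, and leaving out each array gave 1 to 4, the lowest without penicillin chow 3, penicillin high-fat 2 or penicillin high-fat 3. In control mice 1 member, Mrpl48, passed with array weights and 1 at an adjusted p under 0.1. The interaction median was -0.014 without the 3 arrays of low 18S signal. With the probe set of largest variance Mrpl44 for penicillin on high-fat diet was 0.14, and for the interaction Mrpl15 was 0.089 and Mrpl3 -0.021; without the 3 arrays Mrpl3 was -0.024. The cause of these changes was not tested. With the replicate block, 2 members passed for high-fat diet in penicillin mice and 8 for the average. Deviations of samples with the same number correlated at -0.230 to 0.172. No shared origin is stated for them, and these correlations cannot show whether they shared a cage, litter or batch. Of the counts of calls, 157 stayed within 1.5 times and 22 did not, of the medians 164 moved by less than 1 SD and 1 did not, and of the values of named members 919 kept direction and call, 117 lost the call, 2 gained it and 4 reversed. These tallies include the comparisons with 0 calls in the main fit, where the count mostly stayed 0. They also include members that had no call to lose. The SD used for the medians was 0.053, the spread among arrays of a group of the members' median deviation. It is larger than most of the medians, so a median could change sign and count as unmoved. For penicillin on chow the median was -0.034 in the main fit and 0.008 without the 3 arrays of low 18S signal. In penicillin mice the calls for high-fat diet held under 7 (Mrpl47) to 24 (Mrps28) of 26 alternatives. For the average they held under 8 (Mrps25 and Mrpl40) to 25 (Mrps28 and Mrpl47) of 25. The fit to the groups compared alone was run for the 4 contrasts between 2 groups. Dim probe sets, near the filter, limit what the array shows of a change.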
